A study of Mus musculus with 12 samples.

Results

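The FGF ligands and receptors described here are 10 genes, the ligands Fgf3, Fgf4, Fgf8, Fgf10, Fgf15 and Fgf17 and the receptors Fgfr1, Fgfr2, Fgfr3 and Fgfr4. They were chosen by name, and with earlier results of these data known. Every probe that the array files assign to one of these gene names was taken, which gave 17 of 55681 probes and 10 of 36406 gene names. All 10 genes were among the 22593 genes tested, and 1 of the 17 probes, the third Fgf8 probe, was not well above background on any array and was not tested.

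The study measured total RNA of mouse embryonic stem cells, grown in serum with LIF, on 12 one-colour Agilent arrays, with 4 arrays for each of 3 groups. WT was an unmodified line. Id1KO was a line that lacks Id1, an inhibitor of basic helix-loop-helix transcription factors. Id1KO_Zrf1KD was the same Id1KO line after lentiviral pLKO delivery of hairpins against Zrf1, a chaperone and chromatin factor whose gene is Dnajc2, and stable selection with puromycin. The labels call the 4 samples of a group independent biological samples of 1 line, so p-values measure the spread within these lines and not between clones. No infected control with another hairpin was analysed here, and the effects of the hairpins, of infection and of selection cannot be told apart.

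Fibroblast growth factors are secreted proteins that bind receptor tyrosine kinases together with heparan sulphate chains, and the bound receptor signals through Frs2, Ras and the kinases Raf, Mek and Erk. In mouse embryonic stem cells the known main ligand is Fgf4, which the cells make themselves, and the signal through Fgfr1 and Fgfr2 is known to let them leave self-renewal and to favour primitive endoderm. The signal switches on its own brakes, such as the Sprouty, Spred and Dusp genes.

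Levels are given as log2 of the processed signal minus the log2 of that array's 75th percentile signal, so that 0 is the level of the 75th percentile spot. A difference of 1 is a change of 2-fold. Levels of different probes are not set against each other, since probes differ in how brightly they bind, except in the summed levels of marker lists. Those sums are weighted by how brightly each probe binds. A gene was called where limma's Benjamini-Hochberg adjusted p over all 22593 genes was under 0.05. The 75th percentile signal ran from 393 to 596 over the 12 arrays, between 54.8% and 59.3% of spots were well above background, and no spot of any array was saturated. Arrays of one group correlated at 0.987 to 0.996 and arrays of different groups at 0.950 to 0.960.

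As a check of the labels, the level of Dnajc2 was 1.89 ± 0.11 (SD, n = 4) in Id1KO and -0.27 ± 0.08 in Id1KO_Zrf1KD, a fall of 4.47-fold (adjusted p = 9.66e-10). The Id1 probe did not fall in the arrays labelled Id1KO. It read 0.86 ± 0.20 in WT and 1.23 ± 0.31 in Id1KO (adjusted p = 0.0519), and whether it lies in the deleted stretch is not stated in the sources used here, so its level does not test the label. The Y-linked gene Ddx3y was well above background on 0 of 4 WT arrays and on 4 of 4 arrays in each of the other groups. Differences of WT from the arrays labelled Id1KO that come from Id1 and those that come from other differences between the lines cannot be told apart. Names of groups below are those labels. All 10 embryonic stem cell markers of a fixed list, among them Pou5f1 and Sox2, were well above background on every array.

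The sequences of 4 probes are shown. A pair of them matches related stretches of 2 receptors, and results below rest on the others. The second Fgfr1 probe lies on mm9 at chr8:26684061-26684120, plus strand, and the second Fgfr4 probe at chr13:55269212-55269271, plus strand. The capitals mark the 35 of 58 overlapping bases at which these probes are identical in their best alignment without gaps, and no identical run between probes of different members was longer than 9 bases.
Fgfr1 probe 2: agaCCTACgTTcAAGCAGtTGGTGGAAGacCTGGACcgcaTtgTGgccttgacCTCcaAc
Fgfr4 probe 2: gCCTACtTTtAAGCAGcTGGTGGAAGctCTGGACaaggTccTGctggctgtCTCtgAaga
The second Fgfr3 probe (mm9 chr5:34077856-34078090, plus strand) carries the array value farthest from its group in the receptors, and its 60 bases span 235 bases of the genome. The only Fgf3 probe (chr7:152026667-152028526, plus strand) has 60 bases that span 1860 bases of the genome, so both cross at least 1 intron.
Fgfr3 probe 2: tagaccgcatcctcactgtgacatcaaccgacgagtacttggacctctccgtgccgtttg
Fgf3 probe 1: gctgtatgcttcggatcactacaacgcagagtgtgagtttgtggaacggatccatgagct

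In the arrays labelled Id1KO, 4 of the 6 ligands and all 4 receptors were lower than in WT and the ligands Fgf15 and Fgf17 were higher. After the Zrf1 hairpins, all 4 receptors and Fgf10 rose again, while Fgf4, Fgf15 and Fgf17 fell. Fgf4 was the only member called lower in both steps, though Fgf3 and Fgf8 also passed in the second step under 1 and 2 of the 22 alternative settings. Among the receptors, the fall of Fgfr2 lost its call in 10 of the 22 settings. The rise of Fgfr1 lost its call with the mean of its probes. In the second step the third Fgfr1 probe (-0.21) and the second Fgfr4 probe (0.16) did not pass. In Id1KO against WT, 10 of 10 members were called, against 72.0% of all genes tested. In Id1KO_Zrf1KD against Id1KO, 8 of 10 were called against 72.1%, and in Id1KO_Zrf1KD against WT 9 of 10 against 64.6%, and the counts are to be read against these shares. The calls among members were 2 higher and 8 lower in the first comparison, where 42.5% of all genes were higher and 29.6% lower. They were 5 higher and 3 lower in the second, with 32.3% and 39.8% of all genes, and 2 higher and 7 lower in the third, with 32.4% and 32.2%. The values of the groups did not overlap for 9, 8 and 9 of the 10 members in these comparisons, against 65.8%, 67.1% and 60.9% of genes. Each pair of comparisons shares a group, so their directions are not independent of each other.

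**Figure D1:**
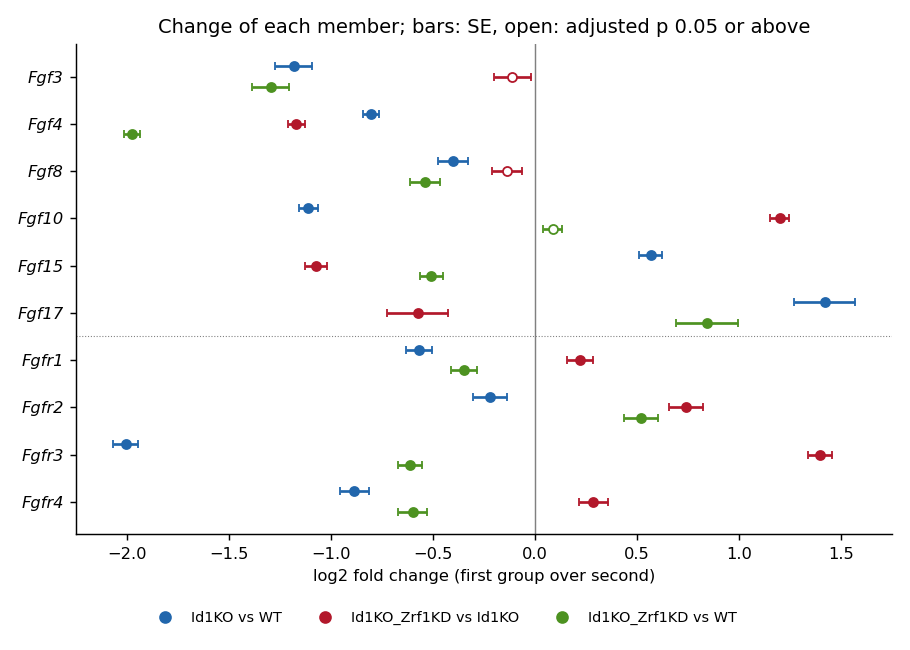
Log2 fold change (x axis) of each member (y axis, its brightest probe) in the 3 comparisons, with standard errors from the fit. Open symbols did not pass an adjusted p of 0.05. Fgf4 lies below 0 in all 3 comparisons, and the receptors lie below 0 in Id1KO against WT and above 0 in Id1KO_Zrf1KD against Id1KO.

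The median fold change over all genes tested was 0.15 on the log2 scale in Id1KO against WT, -0.09 in Id1KO_Zrf1KD against Id1KO and -0.02 in Id1KO_Zrf1KD against WT. With quantile normalization the first of these was 0.02, so values near this size depend on the scaling. Over the ligands the medians were -0.60, -0.36 and -0.53, and over the receptors -0.73, 0.51 and -0.48.

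Fgf4, the ligand that embryonic stem cells are known to make and to need for leaving self-renewal, fell in both steps. Its probe lies at chr7:152051089-152051148 (mm9, plus strand). The 4 WT arrays read 7.03, 6.95, 7.07 and 6.97, the Id1KO arrays 6.17, 6.22, 6.20 and 6.21, and the Id1KO_Zrf1KD arrays 4.998, 5.02, 5.08 and 5.02. The 3 groups were far apart beside a spread of at most 0.05 (SD) in any group. Id1KO was 1.75-fold lower than WT (log2 fold change -0.81, SE 0.04, adjusted p = 1.16e-08). Id1KO_Zrf1KD was 2.25-fold lower than Id1KO (-1.17, SE 0.04, adjusted p = 9.69e-10) and 3.93-fold lower than WT. Each slide carried arrays of all 3 groups, and within the 3 slides the first difference ran from -0.83 to -0.74 and the second from -1.19 to -1.11.

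Fgf10, a ligand of the Fgfr2 splice form of epithelia and known for its part in lung and limb outgrowth, fell in Id1KO and rose again after the hairpins. The values were -1.74, -1.77, -1.66 and -1.74 in WT, -2.89, -2.86, -2.85 and -2.77 in Id1KO, and -1.65, -1.58, -1.74 and -1.60 in Id1KO_Zrf1KD. The Id1KO arrays lay apart below the other groups, whose ranges overlapped. The fall was 2.16-fold (-1.11, SE 0.05, adjusted p = 3.89e-09) and the rise 2.29-fold (1.20, SE 0.05, adjusted p = 2.89e-09). Against WT the difference was 0.09 (SE 0.05, adjusted p = 0.137). The probe is dim, and with normexp background correction the fall was 1.45-fold and the rise 1.50-fold.

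Fgf15, the ligand that carries the bile acid signal from the gut in adults and is made in the embryonic brain, rose in Id1KO and fell below WT after the hairpins. It read 0.28, 0.31, 0.22 and 0.22 in WT, 0.74, 0.78, 0.92 and 0.85 in Id1KO, and -0.29, -0.19, -0.35 and -0.18 in Id1KO_Zrf1KD. No group overlapped another. The rise was 1.48-fold (0.57, SE 0.06, adjusted p = 3.27e-06), the fall from Id1KO 2.11-fold (-1.07, SE 0.06, adjusted p = 2.09e-08), and Id1KO_Zrf1KD stood 1.42-fold below WT (adjusted p = 9.38e-06).

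Fgf17, a ligand of the Fgf8 subfamily known from the midbrain, also rose in Id1KO and fell after the hairpins, but stayed above WT. Its values were -3.06, -3.01, -3.59 and -3.61 in WT, -1.94, -1.94, -1.78 and -1.94 in Id1KO, and -2.40, -2.57, -2.70 and -2.23 in Id1KO_Zrf1KD. The WT arrays were the most spread, in pairs about 0.5 apart, and still lay below every other array. The lower pair, WT replicates 3 and 4, was on slide 3, and the other WT arrays were on slides 1 and 2. Within the slides the difference of Id1KO from WT ran from 1.07 to 1.66. Id1KO was 2.67-fold higher than WT (1.42, SE 0.15, adjusted p = 6.47e-06), Id1KO_Zrf1KD was 1.49-fold lower than Id1KO (-0.58, SE 0.15, adjusted p = 0.00514) and 1.79-fold higher than WT (adjusted p = 0.00047). On the deposited log2 values the first of these differences was 1.52-fold and the second 1.16-fold.

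Fgf3, a ligand known from the inner ear and the primitive streak, fell in Id1KO and did not pass the test in the second step. It read -1.22, -1.10, -1.27 and -1.08 in WT, -2.41, -2.35, -2.26 and -2.39 in Id1KO, and -2.37, -2.62, -2.63 and -2.22 in Id1KO_Zrf1KD. The WT arrays were all higher than the others, which overlapped. The fall from WT was 2.27-fold (-1.18, SE 0.09, adjusted p = 4.38e-07). Between the arrays labelled Id1KO and Id1KO_Zrf1KD the difference was -0.11 (SE 0.09, adjusted p = 0.29), and its sign turned with quantile normalization (0.16) and in the deposited values (0.12). Without Id1KO_Zrf1KD replicate 4 it was -0.19 and passed (adjusted p = 0.0482).

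Fgf8, a ligand of gastrulation and of the limb and midbrain signalling centres, fell the least of the ligands that were lower in Id1KO. Its brightest probe (chr19:45811355-45811414, minus strand) read -1.09, -1.17, -1.09 and -1.36 in WT, -1.56, -1.49, -1.57 and -1.69 in Id1KO, and -1.60, -1.70, -1.74 and -1.83 in Id1KO_Zrf1KD. The WT arrays lay above the others. Id1KO was 1.32-fold lower than WT (-0.40, SE 0.07, adjusted p = 0.00047), and Id1KO_Zrf1KD differed from Id1KO by -0.14 (SE 0.07, adjusted p = 0.117), a value whose sign turned with quantile normalization (0.02) and which passed with normexp (-0.15, adjusted p = 0.0417). The second Fgf8 probe, which was dimmer, gave -0.28 and -0.01 for these comparisons and passed the test in none.

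**Figure D2:**
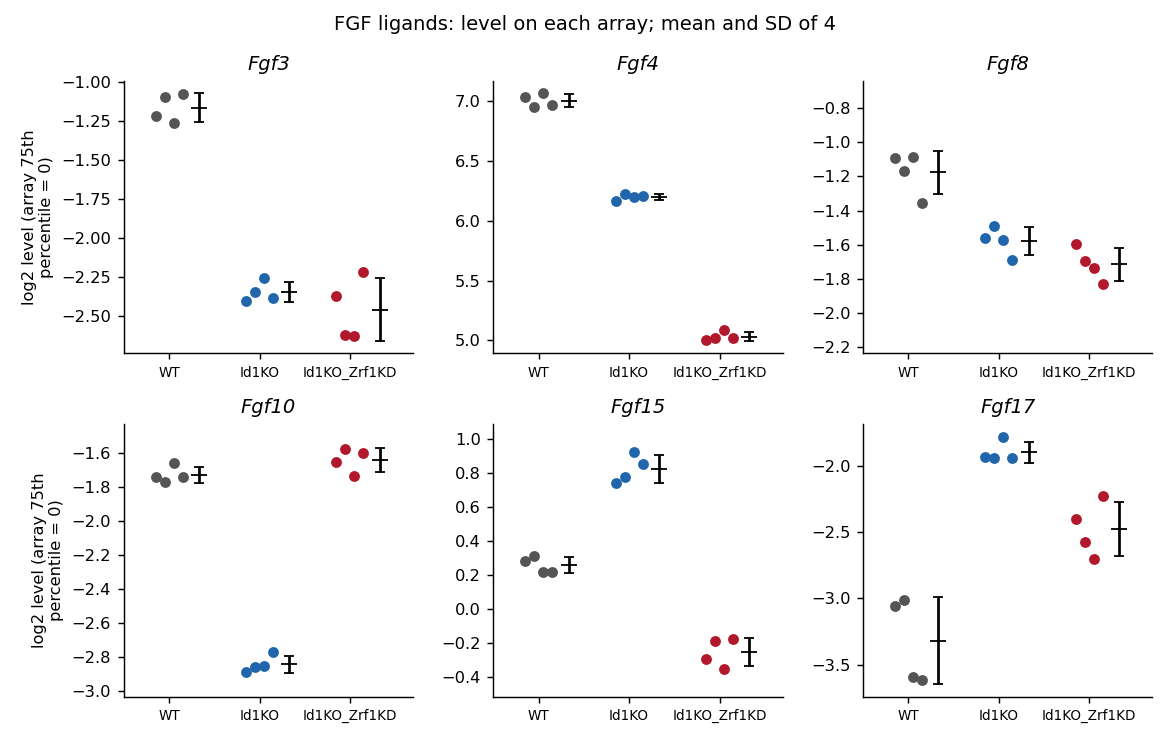
Levels (log2, y axis) of the 6 ligands on each of the 4 arrays of WT, Id1KO and Id1KO_Zrf1KD. Points are arrays and the bars beside them the mean and SD. Fgf4 steps down through the groups from 7.01 to 6.20 and 5.03, while Fgf10 is lowest in Id1KO and Fgf15 and Fgf17 are highest there. The y axes differ between genes.

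Fgfr3, a receptor best known for restraining bone growth, moved most among the receptors. It read 1.17, 1.09, 1.16 and 1.18 in WT, -1.04, -0.80, -0.77 and -0.82 in Id1KO, and 0.51, 0.59, 0.53 and 0.52 in Id1KO_Zrf1KD at its brightest probe (chr5:34079649-34079708, plus strand). No group overlapped another, and the third lay between the other two. Id1KO was 4.02-fold lower than WT (-2.01, SE 0.06, adjusted p = 2.51e-10). Id1KO_Zrf1KD was 2.63-fold higher than Id1KO (1.39, SE 0.06, adjusted p = 4.98e-09) and 1.53-fold lower than WT (adjusted p = 3.54e-06). Within the slides the first difference ran from -2.09 to -1.91 and the second from 1.28 to 1.45.

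The second Fgfr3 probe gave -2.92, -2.22, -2.54 and -2.66 in WT, -3.99, -4.09, -4.06 and -4.00 in Id1KO, and -0.37, -2.99, -3.25 and -3.30 in Id1KO_Zrf1KD. Replicate 1 of the last group stood far above the other 3, and at the first probe the same array read 0.51, inside its group. With all arrays the probe differed by -1.45 in Id1KO against WT and by 1.56 in Id1KO_Zrf1KD against Id1KO (adjusted p = 0.0325 and 0.0233, over 30885 probes). Without that array the second difference was 0.85 (adjusted p = 0.000413). The difference from WT went from 0.11 (adjusted p = 0.876) to -0.59 (adjusted p = 0.00455), the direction of the first probe. This alternative was chosen after seeing the data.

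Fgfr4, a receptor of the liver and of muscle precursors and known as the main one for Fgf15, fell in Id1KO and rose part of the way back. Its brightest probe (chr13:55270033-55270092, plus strand) read 1.16, 0.98, 0.83 and 0.91 in WT, 0.07, 0.05, 0.21 and -0.01 in Id1KO, and 0.43, 0.35, 0.36 and 0.33 in Id1KO_Zrf1KD. The groups did not overlap. The fall was 1.85-fold (-0.89, SE 0.07, adjusted p = 6.06e-07) and the rise 1.22-fold (0.28, SE 0.07, adjusted p = 0.00383). At the second probe, printed above, the fall was -0.89 as well (adjusted p = 1.06e-05), and the second step was 0.16, which did not pass (adjusted p = 0.163).

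Fgfr1, a main receptor of embryonic stem cells and epiblast, fell in Id1KO and rose slightly after the hairpins. At its brightest probe (chr8:26685072-26685131, plus strand) the levels were 4.44, 4.23, 4.30 and 4.22 in WT, 3.65, 3.72, 3.73 and 3.81 in Id1KO, and 3.96, 4.08, 3.87 and 3.89 in Id1KO_Zrf1KD. The groups did not overlap, though Id1KO and Id1KO_Zrf1KD came within 0.1 of each other. Id1KO was 1.48-fold lower than WT (-0.57, SE 0.06, adjusted p = 1.07e-05), and Id1KO_Zrf1KD was 1.17-fold higher than Id1KO (0.22, SE 0.06, adjusted p = 0.00931). The second Fgfr1 probe gave -0.65 and 0.32 for these, both past the test. The third, which starts at base 4641 of the transcript the array files name, gave -0.04 and -0.21 (adjusted p = 0.771 and 0.0921). With the mean of the Fgfr1 probes the second step was 0.11 and no longer passed (adjusted p = 0.0992).

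Fgfr2, the receptor known to support primitive endoderm and trophoblast, was the 1 receptor above WT after the hairpins. Its brightest probe (chr7:137307473-137307532, minus strand) read -1.85, -2.12, -1.86 and -1.92 in WT, -1.98, -2.09, -2.35 and -2.22 in Id1KO, and -1.41, -1.37, -1.39 and -1.50 in Id1KO_Zrf1KD. The last group lay above the others, which overlapped. The fall from WT to Id1KO was -0.22 (SE 0.08, adjusted p = 0.0344), and it missed the threshold in 10 of 22 alternative settings, among them normexp (-0.09, adjusted p = 0.176) and leaving out WT replicate 1 (-0.19), 3 (-0.20) or 4 (-0.22) or Id1KO replicate 3 (-0.16) or 4 (-0.20). The rise after the hairpins was 1.67-fold (0.74, SE 0.08, adjusted p = 1.21e-05), and Id1KO_Zrf1KD stood 1.43-fold above WT (adjusted p = 0.00023). The second Fgfr2 probe shares 42 bases with the first and starts 18 bases further on. It was well above background on 1 of 4 WT arrays, 1 of 4 Id1KO arrays and 4 of 4 Id1KO_Zrf1KD arrays, so it was kept only through the group where it is high, and its values are a description with no test. It stood 1.29 above Id1KO on the log2 scale after the hairpins, 0.19 with normexp and 0.46 in the deposited values, and Id1KO differed from WT by 0.05.

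**Figure D3:**
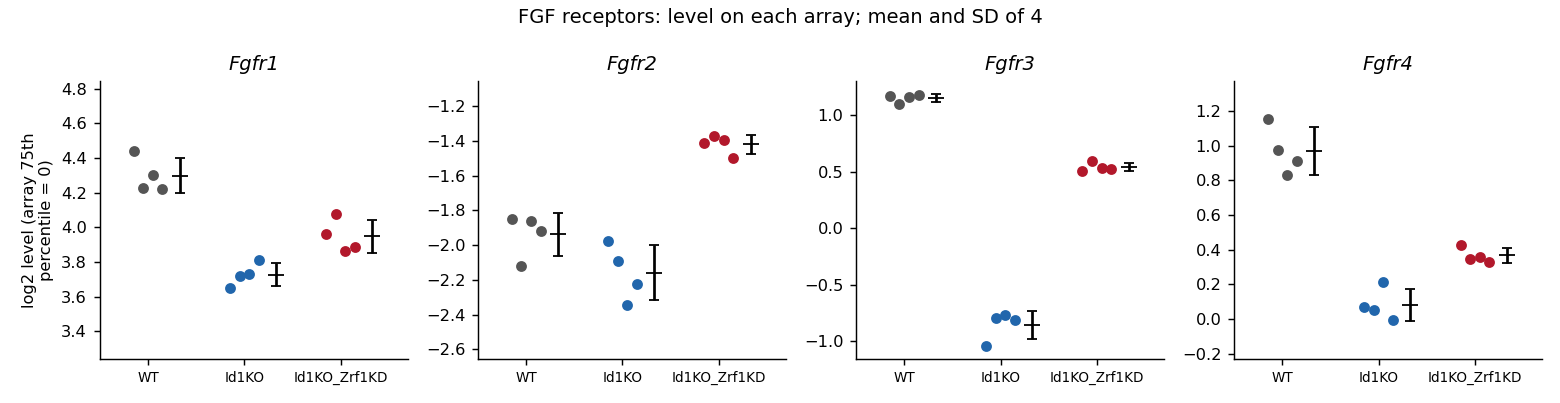
Levels (log2, y axis) of the 4 receptors on each of the 4 arrays of WT, Id1KO and Id1KO_Zrf1KD, with the mean and SD beside the points. Fgfr3 falls from 1.15 to -0.86 and returns to 0.54, and only Fgfr2 ends above WT. The y axes differ between genes.

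Counted by probe, 13 of the 16 tested probes were called in Id1KO against WT, 11 of them lower (70.4% of all 30885 probes were called). In Id1KO_Zrf1KD against Id1KO 11 were called, 8 of them higher (71.0% of all probes), and in Id1KO_Zrf1KD against WT 12, with 9 lower (63.7%). The second Fgfr2 probe, kept only through Id1KO_Zrf1KD, is among those called higher in both comparisons that use that group.

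**Figure D4:**
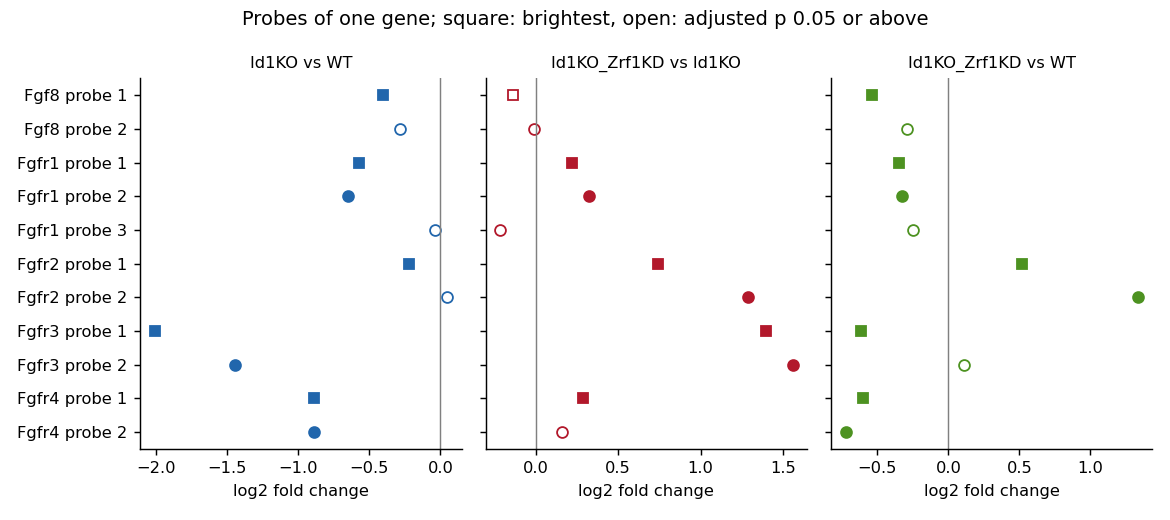
Log2 fold change (x axis) of each tested probe of the members with several probes (y axis) in the 3 comparisons. Squares are the brightest probe, and open symbols did not pass. The third Fgfr1 probe lies near 0 in Id1KO against WT, where the other Fgfr1 probes lie at -0.57 and -0.65.

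Fgf3, Fgf4 and Fgf15 are neighbours on chromosome 7. Counted from the Fgf4 probe, the Fgf3 probe starts at -24.4 kb and the Fgf15 probe at 35.3 kb. These neighbours did not move alike. In Id1KO against WT, Fgf3 and Fgf4 fell (-1.18 and -0.81) and Fgf15 rose (0.57), and after the hairpins Fgf4 and Fgf15 fell by like amounts (-1.17 and -1.07) while Fgf3 differed by -0.11. Beyond Fgf15, Oraov1, a gene of ribosome assembly, rose by 0.22 in the first step and differed by -0.02 in the second (adjusted p = 0.704). Ccnd1, which encodes cyclin D1, rose in both, by 0.49 and 0.30. On the other side Ano1, a chloride channel, rose by 0.36 and 0.89, and Fadd by 0.38 and 0.35. Cttn and Ppfia1, on that side too, fell in the first step (-0.41 and -0.35) and rose in the second (0.55 and 0.25). Tested probes without a gene name at -87.9 and 340.7 kb fell in the second step (-1.04 and -1.20).

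**Figure D5:**
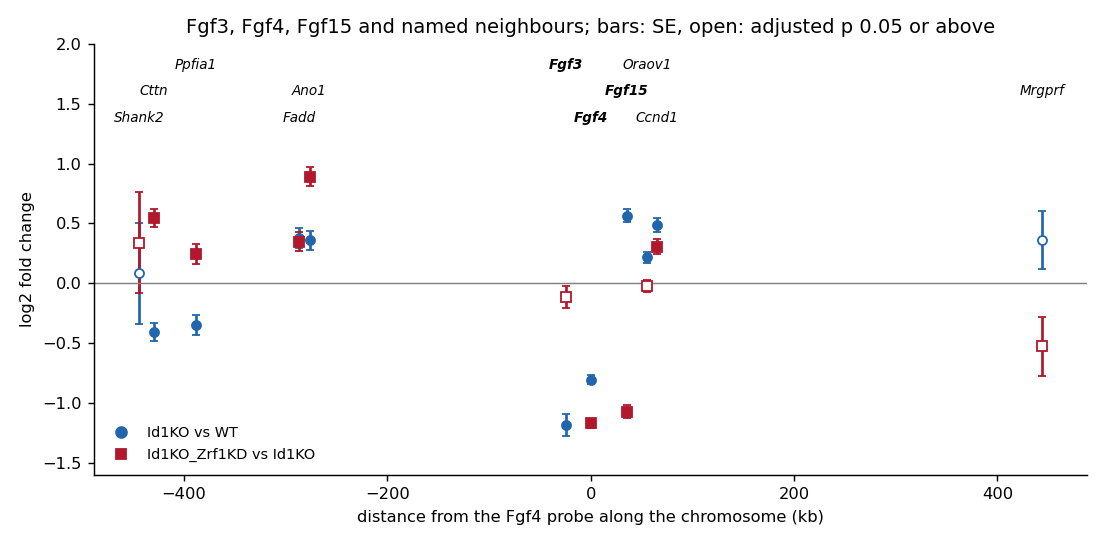
Log2 fold change with SE (y axis) of Fgf3, Fgf4, Fgf15 and the named genes tested within 500 kb, against the distance in kb from the Fgf4 probe (x axis), in Id1KO against WT (circles) and Id1KO_Zrf1KD against Id1KO (squares). Open symbols did not pass. Fgf4 and Fgf15 lie together near -1.1 in the second comparison, and Ccnd1 at 65.1 kb lies above 0.

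Promoter sequence from RefSeq (GRCm38.p6) was at hand for 6 of the 10 members, and for 32851 windows in all. The 250 bases before the start are shown for Fgf4 and for the receptors that had a window, Fgfr2, Fgfr3 and Fgfr4. Fgfr1 had no window. These sequences are shown because Id1 is known to act on factors that bind the E-box CANNTG. Capitals mark each CANNTG, which reads alike on both strands. It was present in 66.2% of all windows of this length. Fgf4 is at chr7:144861136-144861385 and has 1, at position -154 from the start. Fgfr2 is at chr7:130266809-130267058 on the minus strand and has 1, at -235. Fgfr3 has starts at chr5:33721474-33721723, with 1 at -97, and chr5:33722056-33722305, with 0. Fgfr4 is at chr13:55152568-55152817 and has 2, at -112 and -10.
Fgf4: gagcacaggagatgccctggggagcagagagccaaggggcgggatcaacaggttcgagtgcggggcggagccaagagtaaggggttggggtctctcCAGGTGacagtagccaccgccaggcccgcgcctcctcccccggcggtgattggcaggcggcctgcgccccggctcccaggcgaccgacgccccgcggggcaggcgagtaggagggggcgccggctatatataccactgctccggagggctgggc
Fgfr2: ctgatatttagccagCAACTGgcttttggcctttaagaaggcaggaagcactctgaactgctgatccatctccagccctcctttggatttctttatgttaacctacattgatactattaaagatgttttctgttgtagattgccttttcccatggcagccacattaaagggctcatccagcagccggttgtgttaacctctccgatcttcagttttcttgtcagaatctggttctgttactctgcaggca
Fgfr3 first start: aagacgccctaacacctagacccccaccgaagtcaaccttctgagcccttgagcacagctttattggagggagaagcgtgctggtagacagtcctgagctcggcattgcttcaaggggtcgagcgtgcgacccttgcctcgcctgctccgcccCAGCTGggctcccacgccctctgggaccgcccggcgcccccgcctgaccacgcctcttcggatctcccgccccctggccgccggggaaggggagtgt
Fgfr3 second start: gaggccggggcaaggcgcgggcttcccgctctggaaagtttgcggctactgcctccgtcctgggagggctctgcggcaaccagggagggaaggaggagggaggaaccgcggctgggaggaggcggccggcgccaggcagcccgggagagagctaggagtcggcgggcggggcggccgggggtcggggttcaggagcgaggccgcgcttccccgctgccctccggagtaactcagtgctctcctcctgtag
Fgfr4: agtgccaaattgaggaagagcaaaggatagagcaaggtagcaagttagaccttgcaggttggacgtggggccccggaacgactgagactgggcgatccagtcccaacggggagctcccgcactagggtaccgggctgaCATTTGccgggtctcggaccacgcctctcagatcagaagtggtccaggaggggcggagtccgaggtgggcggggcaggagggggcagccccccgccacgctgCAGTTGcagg
The GC box GGGCGG, searched on both strands, occurred in 32.7% of all windows. It was found 2 times before Fgf4, 3 and 2 times before the Fgfr3 starts, 2 times before Fgfr4 and 0 times before Fgfr2. The window of Fgf10 (chr13:118714449-118714698) had 2 CANNTG and 1 GGGCGG, and that of Fgf3 (chr7:144838362-144838611) had 0 of both. TGANTCA, the AP-1 motif, was in 6.75% of all windows and in none of these. A match of these letters is a description of the sequence and not of binding.

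The genes whose levels followed a member most closely over the 12 arrays, by the root mean square difference after centring each gene, were found among genes with a symbol. For Fgf4 they were Slc2a4 (0.07), Il12rb1 (0.10) and Klk13 (0.10). For Fgf10 they were Dysf (0.07), Gas6 (0.08) and Bcat1 (0.08), and for Fgf15 Pigp (0.06), Ccdc77 (0.06) and Tmem60 (0.07). Fgf3 was nearest to Cox7b2 (0.10), Nlrp14 (0.11) and Atp6v0e2 (0.11), Fgf8 to Per1, Oasl1 and Aldh1b1 (0.08 each), and Fgf17 to Dusp22 (0.14), Fam55d (0.15) and Csrnp3 (0.16). For Fgfr3 they included Zfpm1 (0.09) and Fbxo2 (0.11). Fgfr1 was nearest to Klhdc8b, Haus8 and Ttl (0.06 each), Fgfr2 to Ube2g2, Gfm1 and Ctdp1 (0.09 each), and Fgfr4 to Retsat (0.06), Smarcd2 (0.06) and Oplah (0.08). With 3 groups that differ at most genes, a small difference marks a like order of the groups and no more.

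Of 16 other FGF genes on a list, 12 were tested. In Id1KO against WT 6 of the 12 were called higher and 3 lower, against 42.5% and 29.6% of all genes. In Id1KO_Zrf1KD against Id1KO 5 were higher and 3 lower, against 32.3% and 39.8%, so these counts lie near the shares over all genes. The 6 include Fgf5 and Fgf20, and Fgf20 was well above background on no WT or Id1KO array. The 5 include Fgf9 and Fgf20, which were well above background on no Id1KO array. The counts hold these genes without a measured fold. Fgf5, a ligand known as a mark of the primed epiblast, was well above background on 0 of 4 WT arrays and read -1.22 ± 0.08 in Id1KO and -1.10 ± 0.11 in Id1KO_Zrf1KD. It was kept only through the groups where it is high, so no test against WT is given. Fgf1 rose by 5.02-fold in the first step and differed by 0.11 in the second. Fgf7, a ligand of stromal cells, rose by 1.36-fold and then by 4.19-fold, and Fgf23, a hormone of phosphate balance, rose by 1.92-fold and then fell by 2.78-fold.

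Of 18 co-receptors and binding proteins, 16 were tested. In Id1KO against WT 11 fell and 3 rose, with a median of -0.58 on the log2 scale, where 29.6% of all genes fell and 42.5% rose. After the hairpins 13 rose and 3 fell, with a median of 1.12, where 32.3% of all genes rose and 39.8% fell. Sdc4, a heparan sulphate carrier, fell by 3.74 and rose by 1.19. Flrt1, a membrane protein that binds FGF receptors, fell by 3.04 and rose by 1.07. Flrt3 of the same family rose in both, by 0.89 and 2.21, and Klb, the co-receptor of Fgf15, by 0.65 and 1.97. Gpc4, a heparan sulphate carrier of the membrane, fell by 0.61 and rose by 2.16.

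Of 12 genes of heparan sulphate synthesis and editing, 8 fell and 3 rose in Id1KO, with a median of -0.50. After the hairpins 9 rose and 1 fell, with a median of 0.57. Hs3st1, among the 9, was well above background on no Id1KO array. Of all genes 29.6% fell and 42.5% rose in the first step, and 32.3% rose and 39.8% fell in the second. Hs6st1, which adds sulphate at the sixth carbon, fell by 1.38 and rose by 1.49. With the mean of its probes the fall was 0.12 and no longer passed (adjusted p = 0.327). Ext2, a chain polymerase, fell by 1.33 and rose by 0.99. Sulf1, which removes sulphate from the chains outside the cell, rose by 1.80 and differed by 0.05 in the second step (adjusted p = 0.547).

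Of the relay from receptor to Erk, 20 of 21 genes were tested. In Id1KO 13 fell and 4 rose (median -0.31), and after the hairpins 12 rose and 4 fell (median 0.33). The shares over all genes were 29.6% lower and 42.5% higher, then 32.3% higher and 39.8% lower. The adaptor Grb2 fell by 0.77 and rose by 0.72, and the phosphatase Ptpn11 fell by 0.37 and rose by 0.66. The kinase gene Araf fell in both, by 0.85 and 0.25, and Braf rose by 0.26 and then fell by 0.62.

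The feedback and target genes went the other way in the first step. Of the 12 tested of 15, 9 rose and 1 fell in Id1KO (median 0.59), and 7 rose and 4 fell after the hairpins (median 0.26). Over all genes 42.5% rose and 29.6% fell, then 32.3% rose and 39.8% fell. Dusp6, an Erk phosphatase, rose by 3.98-fold and then by 1.86-fold. Spry2, a Sprouty inhibitor, rose by 3.21-fold and then by 1.78-fold, and Etv1, a transcription factor gene switched on by Erk, rose by 3.41-fold and fell by 1.46-fold. Etv4 of the same family was the 1 that fell in Id1KO, by 1.81-fold, and it rose by 2.03-fold after the hairpins. Against WT, 10 of the 12 were higher in Id1KO_Zrf1KD and 1 lower (median 0.83), while over all genes 32.4% were higher and 32.2% lower. Dusp5, among the 10, was well above background on no WT array. Etv4 was among the higher ones by 0.16 (adjusted p = 0.0407), a call lost under most of the 22 alternatives. The difference was 0.007 with quantile normalization (adjusted p = 0.937) and 0.005 in the deposited values (adjusted p = 0.954). The call was also lost with normexp (adjusted p = 0.072), with slide as a block (adjusted p = 0.0589) and without any 1 of the WT arrays.

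Some lists of markers of other cell types moved with the receptors and Fgf10, and others did not. Of 13 fibroblast or feeder cell markers, 13 rose in Id1KO_Zrf1KD against Id1KO, where 32.3% of all genes rose. In Id1KO against WT 7 fell and 3 rose. Their summed level, in units of the 75th percentile signal, lay between 22.7 and 25.2 on the WT arrays, between 12.1 and 13.3 on the Id1KO arrays and between 62.3 and 66.9 on the Id1KO_Zrf1KD arrays, and Lum was well above background on no WT or Id1KO array. All 12 primitive and parietal endoderm markers rose as well. In Id1KO against WT 6 of them fell and 3 rose, namely Sox7, Foxa2 and Dab2. Their summed level was 217 to 231 on the WT arrays, 121 to 127 in Id1KO and 393 to 406 in Id1KO_Zrf1KD. Sparc, with means of 7.42, 6.48 and 8.02, gave the largest part of that sum. Of 9 tested trophoblast markers 8 rose and 1 fell after the hairpins and 8 fell before them, in Id1KO against WT, with summed levels of 52.6 to 56.7, 33.5 to 35.2 and 62.7 to 64.0, and Elf5 was well above background in no group and Cdx2 on no WT or Id1KO array. Of 6 tested primitive streak and mesoderm markers 4 rose and 2 fell after the hairpins. Of the 4, T, Gsc and Evx1 were well above background on no Id1KO array, and Evx1 on no WT array. In Id1KO against WT Kdr rose and 3 fell. The summed level of the 6 was highest in Id1KO, at 7.19 to 8.51, against 4.23 to 4.57 in WT and 3.64 to 4.19 in Id1KO_Zrf1KD. That sum mostly follows Kdr, with means of 1.50, 2.77 and 1.33 in WT, Id1KO and Id1KO_Zrf1KD. Of 8 tested neural progenitor markers 2 rose and 4 fell, with summed levels of 5.86 to 6.35, 5.77 to 6.52 and 6.98 to 7.85. Of the 10 embryonic stem cell markers 4 rose and 5 fell in Id1KO against WT, where 42.5% of all genes rose and 29.6% fell. After the hairpins 5 rose and 4 fell. Their summed level was 1051 to 1202, 1129 to 1256 and 935 to 952. Dppa5a, with means of 9.03, 9.53 and 8.87, gave the largest part of that sum. The sum thus does not show the falls of Nanog, Zfp42, Esrrb, Klf4 and Sox2 in Id1KO. In these bulk samples fewer cells of a type and less RNA per cell cannot be told apart, and the part of other cell types in the changes of the members was not tested.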

How the data were processed

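Total RNA was labelled with Cy3 and hybridised to 12 one-colour Agilent arrays, 4 per group. Per the file headers, Feature Extraction 10.7.3.1 made the deposited intensities, which include the background-subtracted processed signal used here, the mean signal and the local background. The deposited log2 values serve as an alternative, and per the files all columns have a median of 6.55, while the steps behind them are not given in the sources used here.

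Control spots and outlier-flagged spots were left out, log2 processed signals were centred on each array's 75th percentile, and spots of a probe were averaged. A probe was kept where at least 50% of its spots were well above background on all 4 arrays of a group, and the brightest kept probe stood for a gene. limma 3.58.1 (R 4.3.3) fitted 1 mean per group over 22593 genes. Adjusted p-values are Benjamini-Hochberg over all genes, with a threshold of 0.05. The script was tested on simulated data. The members and lists were chosen with earlier results of these data known. Named genes were all members, up to 4 genes per list and comparison with the smallest adjusted p, and the 3 genes most like each member. A few of the genes this rule names, and 1 probe sequence, are not reported here. Alternatives covered scaling, background, filters, probe choice, slide, replicate block and each array left out. Where a probe was not well above background in a group, the fold is a bound against the lowest signal well above background. Probe positions are on mm9, with no annotation of exons or UTRs used here, and probe names follow the array design. Replicate numbers are not stated to pair the samples. The number of arrays limits the precision.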

Additional observations from a re-analysis of the deposited data

Results flagged for a closer look

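In groups of 4 arrays, an array was singled out where its gap to the nearest other array exceeded Dixon's critical share of the group's range. Chance alone gives about 1 in 20 groups, and 9 of 162 groups were singled out, 5 of them among the 51 groups of member probes. Fgf17 in Id1KO replicate 3 read -1.78, against -1.94 on the other arrays. Fgfr3 read 1.09 in WT replicate 2 and -1.04 in Id1KO replicate 1 at its brightest probe. The second Fgfr3 probe read -0.37 in Id1KO_Zrf1KD replicate 1 against -2.99 for the nearest array. The third Fgf8 probe, below background, read -6.04 in Id1KO_Zrf1KD replicate 2. Among the other genes, Flrt1 read -0.69 in WT replicate 1, Fgfrl1, a receptor-like protein without a kinase, 2.57 in Id1KO_Zrf1KD replicate 3, Flrt3 2.36 in Id1KO_Zrf1KD replicate 1, and Grb2 3.47 in WT replicate 4.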

How the results depend on the processing

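Each comparison was recomputed under 22 alternatives. The number of members called stayed between 9 and 10, 7 and 9, and 8 and 10 in the 3 comparisons, and the number of all genes called stayed within 1.5 times. The replicate block gave 9, 9 and 9 members. Deviations of arrays with the same replicate number had a median correlation of -0.20 (from -0.45 to 0.40), while arrays of 1 slide deviated together (median 0.24). Arrays with the same number can lie on different slides, so these correlations cannot decide whether the numbers pair the samples. With slide as a block every member kept its call. Of the member values under alternatives, 640 kept direction and call, 12 lost a call (10 of them Fgfr2 in Id1KO against WT), 4 gained one and 4 changed sign.

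The sign changes in Id1KO_Zrf1KD against Id1KO came under quantile normalization and in the deposited log2 table, at the values given in that order, for Fgf3 (0.16 and 0.12), Fgf8 (0.025 and 0.0075), Fgf22 (0.0014 and 0.015) and Sulf1 (-0.046 and -0.048). Against WT they were Cnpy2 (-0.021 and -0.038 likewise), Grb2 (0.032) and Rps6ka3 (0.21) with the mean of a gene's probes, and Extl3 without WT replicate 3, where it ran from -0.059 to 0.014 over the arrays left out. The second Fgfr3 probe went to -0.59 without Id1KO_Zrf1KD replicate 1, which was chosen after seeing the data. The cause was not tested. The mean of the Fgfr3 probes, which includes that array, left Fgfr3 at -0.25 against WT (adjusted p = 0.436). With normexp, Fgf3 in Id1KO against WT went from 2.27-fold to 1.64-fold lower. The deposited and quantile values gave 50.5% and 50.4% of the genes called in Id1KO against WT as higher, against 59% here. Signal close to background limits the dim probes: with normexp the second Fgfr4 probe went from -0.89 to -0.43 in Id1KO against WT, and in the second step from 0.16 to -0.03.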
